A study of Mus musculus with 12 samples.

Results

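Histones are the proteins around which DNA is wound, and the RNA of their genes was followed in mouse lung across adult life. The members were the protein-coding genes of the deposited table whose symbols begin with Hist1h to Hist4h, H2af, H3f or H1f. There were 83 of them among 35275 genes, of which 22026 were protein-coding. Of the 83, 68 carry Hist symbols and are called replication-dependent below, and the other 15 are called variants. Another 9 genes matched by symbol, 8 pseudogenes and 1 antisense gene, and were left out because they are not protein-coding. RNA came from whole lungs of male wild-type C57Bl/6J mice aged 3, 6, 12 or 24 months, 3 mice and 3 libraries at each age, with no other treatment named. The labels call the RNA poly(A)-selected. The series asks how gene expression in the lung differs with age.

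A nucleosome holds the core histones H2A, H2B, H3 and H4, and linker histone H1 binds where the DNA enters and leaves it. Replication-dependent histone genes lie in clusters and are transcribed mainly in S phase, when new DNA has to be packed. Their messages usually end just after a stem-loop that is bound by the protein SLBP, in place of a poly(A) tail, and only part of such messages carry a tail in cells that no longer divide. Variant genes are transcribed throughout the cell cycle, give ordinary polyadenylated messages, and supply histones such as H3.3 and H2A.Z that are exchanged into chromatin outside S phase. Selection on poly(A) therefore reads the variants directly and the replication-dependent genes only as far as their messages have tails.

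The stem-loop is shown because it was found mostly in 1 of the 2 classes. Only annotated transcripts were searched, so a stem-loop past an annotated end would be missed. A perfect stem of 6 base pairs that begins with GG was searched, with a loop of 4 bases: T, then T or C, then T, then A, C or T. The search was made in the GENCODE M21 transcripts of the members (build GRCm38, the same as mm10). It was found in 44 of the 66 replication-dependent genes that have a transcript there and in 1 of the 15 variants. Below, the loop is in capitals and the stem in lower case, 5′ to 3′.
commonest form, 24 genes, among them Hist1h1c, Hist1h2ac and Hist2h3c2: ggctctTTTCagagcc
form of 7 genes, among them Hist1h4h, Hist1h4n and Hist1h4m: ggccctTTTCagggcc
form of 6 genes: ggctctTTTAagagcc
form of 2 genes, among them Hist1h4i: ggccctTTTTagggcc
H2afx, the variant with a stem-loop: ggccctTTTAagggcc
The H2afx stem-loop lay 822 bases before the end of its transcript. H2afx encodes H2A.X, the histone phosphorylated around DNA breaks, and is known to give both a stem-loop message and a polyadenylated one. No stem-loop of this form was found for Hist1h2bc or Hist2h2be.

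The promoters of H2A and H2B genes are shown because these genes lie head to head in pairs. In the deposited coordinates 12 H2A genes and 12 H2B genes formed 12 such pairs with 235 to 305 bases between their starts. One of them joins Hist1h2ac and Hist1h2bc on chromosome 13. Its sequence is given as the 250 bases before the RefSeq start of Hist1h2ac (GRCm38.p6, chr13:23683960-23684209, minus strand). Next to it stand the 250 bases before the RefSeq start of H3f3b, the variant with the most reads (chr11:116024505-116024754, minus strand). Capitals mark TATAAA, ATTTGCAT and CCAAT on either strand, so that ATGCAAAT and ATTGG are marked as well.
Hist1h2ac, shared with Hist1h2bc: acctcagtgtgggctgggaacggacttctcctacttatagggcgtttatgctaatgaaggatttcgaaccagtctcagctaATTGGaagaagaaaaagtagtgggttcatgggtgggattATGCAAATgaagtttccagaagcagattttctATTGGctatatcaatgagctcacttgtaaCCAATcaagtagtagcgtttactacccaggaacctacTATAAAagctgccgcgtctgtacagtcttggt
H3f3b: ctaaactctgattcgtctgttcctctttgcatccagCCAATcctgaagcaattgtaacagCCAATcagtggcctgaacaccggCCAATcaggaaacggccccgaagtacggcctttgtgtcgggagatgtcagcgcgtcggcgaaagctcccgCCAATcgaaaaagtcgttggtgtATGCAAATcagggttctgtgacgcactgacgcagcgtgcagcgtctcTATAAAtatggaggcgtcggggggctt

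RefSeq promoters of 300 bases, 250 before and 50 after the start, were matched for 74 of the 83 members. TATAAA stood in 34 of 61 replication-dependent promoters (55.7%) and in 1 of 14 variant promoters, that of H3f3b, against 13.6% of all 32851 promoters. The octamer ATTTGCAT, a site of POU-domain factors such as Oct1, stood in 7 of 16 H2A promoters and 7 of 17 H2B promoters of replication-dependent genes. It stood in none of the H1, H3 or H4 promoters of that class, and in 1.74% of all promoters. CCAAT, the site of the factor NF-Y, stood in 85.2% of replication-dependent promoters but in only 3 of 12 H4 promoters, against 37.4% of all. These are matches of letters in a window and nothing more. The H4 genes were thus set apart from the other replication-dependent genes in the letters found near their starts.

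The libraries held 14.7 to 21.2 M gene reads. Weighted by reads, genes had a mean GC content of 50.1 to 51.5% in the 9 libraries of 3, 6 and 12 months and of 54.1, 54.3 and 55.8% in the 3 libraries of 24 months. At 24 against 3 months 82.8% of the 16042 genes tested differed as sequenced, which is the background for the counts of that comparison without correction. Each fold change is therefore given as sequenced and with a correction that removes from each library its smooth trend on GC content and gene length. The age and this shift in base composition cannot be told apart by the design, and which of the values is closer to the tissue was not tested. Lung markers were present in every library, with summed levels of 6 alveolar type 2 genes of 21509 FPKM or more, and no gene of the 8 marker lists was at 0 throughout.

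Almost all replication-dependent RNA in these libraries came from a few genes. Reads of the 68 genes came to 39500 over all 12 libraries, against 232364 for the 15 variants. Hist1h1c, which encodes the linker histone H1.2, held 47.0% of the replication-dependent reads, and with Hist1h2bc, an H2B gene, 81.1%. No read was found for 9 of the 68 genes, 1 to 10 reads for 22, 11 to 100 for 24, and over 100 for 13. With 212 M gene reads in all, a count of 0 allows up to 0.0141 reads per M gene reads (3 counts, for counting error only). The genes without a read included Hist1h2aa and Hist1h2ba, the H2A and H2B genes known from the testis. They also included copies whose sequence is shared with a neighbour: every 50-base word of Hist2h2aa1 and Hist2h3c1 occurs in another gene as well. Among variants H1fnt, H2afb2 and H2afb3 had no read, H2afb1 had 1 and H1foo, the oocyte linker histone, had 7.

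**Figure D1:**
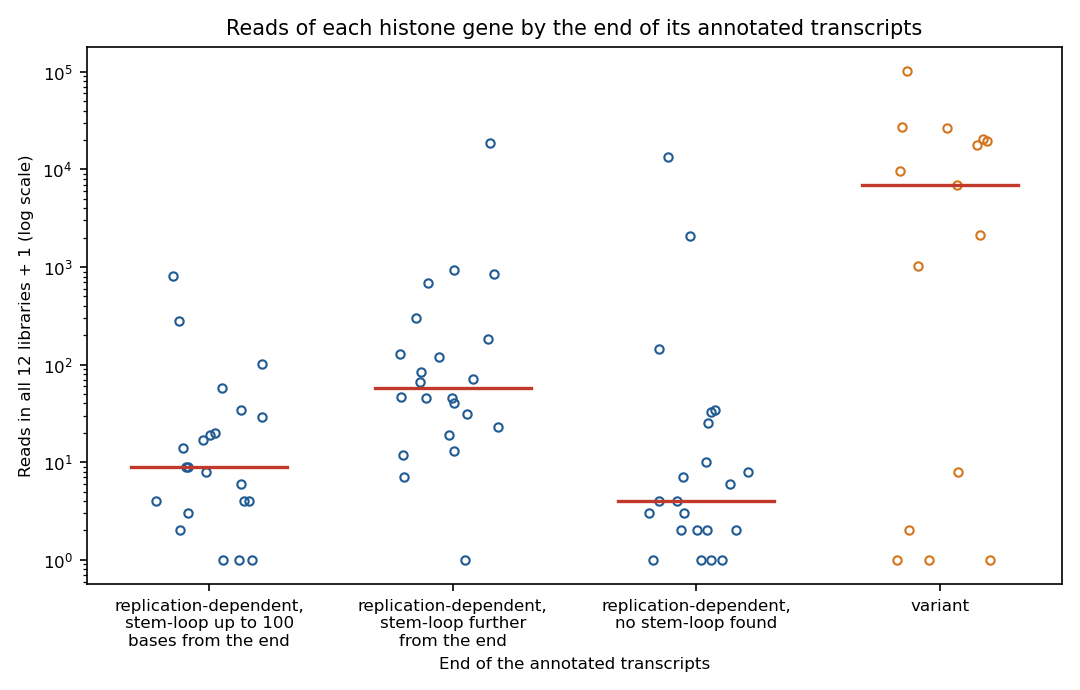
Reads of each histone gene summed over all 12 libraries, plus 1, on a log axis, by the end of its annotated transcripts; each circle is 1 gene and each line a median. Replication-dependent genes whose stem-loop lies further from the end have a median of 56 reads and those with it near the end 8, while variants range from 0 to 100966. Reads are not divided by gene length.

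The reads were also divided by how the annotated transcript ends. For 22 replication-dependent genes the annotation stops within 100 bases after the stem-loop, and these had a median of 8 reads and 1403 reads together. For another 22 it runs on further, and these had a median of 56 reads and 22248 together, of which Hist1h1c, with 840 bases past its stem-loop, held 18570. The 22 genes without a stem-loop in the annotation had a median of 3 reads and 15833 together, of which Hist1h2bc held 13462. Some of these 22 have short annotated transcripts, such as 381 bases for Hist1h2bn and 312 for Hist1h4k. A missing stem-loop can therefore lie in the gene model, and these 22 are not a class of messages known to lack it. The annotation was itself drawn from sequenced messages, so read number and annotated end are not independent. These reads are also not divided by length, and the groups differ in gene length and in sequence shared with other genes. The part of length and of shared sequence in these medians was not tested. The signal AATAAA stood in the last 50 bases of 15 replication-dependent genes and 10 variants, and all 10 variants tested except H2afx held it. Most replication-dependent transcripts have 1 exon, but the longest transcripts of Hist1h2bc and Hist1h2be have 2.

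Sequence shared between copies limits what can be said of single genes. Of the 66 replication-dependent genes with a transcript, 62 shared at least 1 word of 50 bases with another gene, and the median gene shared 49.6% of its words. For the genes described below the share was 85.6% for Hist1h4n, 63.5% for Hist2h3c2, 45.8% for Hist1h4h, 30.1% for Hist1h2bc, 28.9% for Hist1h4i, 8.54% for Hist1h1c and 0.0% for Hist2h2be. Among variants it was 33.2% for H2afz, 14.9% for H3f3a, 8.40% for H3f3b and 0.0% for H2afv, H1f0, H1fx and H2afy. No source used here says to which gene reads that fit several copies went, so levels of the first 3 of these genes are the least certain. Other annotated genes overlap H3f3a (H3f3aos and Gm17275), H2afy2 (Aifm2) and H1fx (Gm5577) on the opposite strand, and without a stated strand setting reads of such partners cannot be told apart. Hist1h2be and Hist3h2a are overlapped as well, by Gm11398 and Trim17.

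Enough reads for a test were found for 24 members, 14 replication-dependent and 10 variant. The other 54 replication-dependent genes and 5 variants were too low. Of the 24, 19 reached the read minimum in all 3 mice of every age. Hist1h2bn reached it in all 3 mice only at 24 months, Hist1h1e at 6 and 12 months, and Hist3h2ba, Hist1h4m and Hist1h2ac at no age, so these 5 lie at the edge of what could be tested. Levels below are FPKM, fragments per kilobase of gene relative to library size, with library sizes scaled by the TMM method, for mice 1, 2 and 3 of each age in turn. Values called as sequenced use the TMM scaling too. Unless another scale is named, statements on which mice overlap refer to these scaled levels. They need not hold for the deposited FPKM, which are not scaled by TMM. Fold changes are log2 values ± SE from the edgeR quasi-likelihood test, with p-values adjusted over all genes by Benjamini-Hochberg, and a gene is said to rise or fall where that p was under 0.05.

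Hist1h1c (chr13:23738808-23740367, plus strand, 1 exon) climbed with age. Its levels were 42.3, 35.4 and 28.9 FPKM at 3 months, 44.2, 38.8 and 34.1 at 6 months, 57.0, 58.9 and 56.0 at 12 months, and 95.6, 133 and 100.2 at 24 months. On this TMM scale all 12-month mice stood above all 3-month mice, and all 24-month mice above every younger one. In the deposited FPKM, without TMM scaling, 24-month mouse 3 lay below all 12-month mice. Hist1h1c rose at 12 against 3 months by 0.69 ± 0.20 (adjusted p = 0.036) and at 24 against 3 months by 1.63 ± 0.21 (adjusted p = 3.0e-06). With the correction neither comparison passed (0.31 ± 0.18, adjusted p = 0.22, and 0.23 ± 0.18, adjusted p = 0.27), although without 24-month mouse 3 the corrected value at 24 months was 0.45 (adjusted p = 0.015). Its GC content, 55.1%, was above that of 77.8% of the genes tested.

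Hist1h2bc (chr13:23684199-23692488, plus strand, 2 exons) had the highest level per length of the class. It stood at 94.6, 69.1 and 66.1 FPKM at 3 months, 74.1, 70.5 and 76.2 at 6 months, 105.9, 110.6 and 111.9 at 12 months, and 74.7, 78.6 and 44.2 at 24 months. The 12-month mice were above all others, and the 24-month mice overlapped those of 3 months. The difference at 12 against 3 months did not pass the test (0.51 ± 0.22, adjusted p = 0.11), nor did that at 24 months (-0.22 ± 0.22, adjusted p = 0.37), but with the correction it rose at 24 months by 0.68 ± 0.15 (adjusted p = 0.0015). Its partner across the shared promoter, Hist1h2ac, stood at 0.347 to 2.09 FPKM in all libraries, so that the H2B gene was 22.5 to 214 times higher per length. The deposited length of Hist1h2ac is 476 bases and its longest GENCODE transcript has 2482, and for Hist1h2bc these are 736 and 1156, so this ratio and both corrected values depend on the gene model. In the pair of Hist2h2ac and Hist2h2be the H2B gene also had most reads, 2098 against 28.

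Of the 4 H4 genes tested, Hist1h4h and Hist1h4i were higher in all 24-month mice than in all younger ones. Hist1h4h (chr13:23531050-23531522, plus strand) stood at 4.72, 4.18 and 3.56 FPKM at 3 months, 6.63, 6.39 and 4.94 at 6 months, 8.14, 9.11 and 11.1 at 12 months, and 11.3, 11.5 and 25.7 at 24 months. On these TMM-scaled levels the mice of 3, 6, 12 and 24 months did not overlap in any pair of ages. Hist1h4h rose by 1.18 ± 0.32 at 12 against 3 months (adjusted p = 0.028) and by 1.94 ± 0.33 at 24 against 3 months (adjusted p = 4.8e-05). It was 1 of only 2 replication-dependent genes that rose at 24 months both as sequenced and with the correction, which left 0.79 ± 0.23 (adjusted p = 0.010), and 0.71 ± 0.23 at 12 against 3 months (adjusted p = 0.047). Removing GC content alone, without length, left 0.03 at 24 against 3 months.

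Hist1h4i (chr13:22040636-22041362, minus strand) was the other. Its levels were 3.13, 2.60 and 2.32 FPKM at 3 months, 1.67, 2.98 and 1.85 at 6 months, 2.26, 1.98 and 3.21 at 12 months, and 5.77, 21.1 and 14.8 at 24 months. All 24-month mice lay above the 9 younger ones, which overlapped one another, and mouse 1 of 24 months was nearer to the young mice than the other two. It rose by 2.37 ± 0.40 at 24 against 3 months (adjusted p = 4.9e-05) and by 1.89 ± 0.38 with the correction (adjusted p = 0.00081). The fits that left out 1 mouse gave 1.91 to 2.74 as sequenced and 1.51 to 2.36 with the correction, and it passed in all 12 of them.

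Hist1h4n, a further H4 gene (chr13:21831767-21832196, minus strand), was carried by a single mouse. It stood at 3.08, 3.89 and 1.47 FPKM at 3 months, 2.18, 2.81 and 2.09 at 6 months, 1.41, 1.29 and 2.04 at 12 months, and 2.87, 11.2 and 4.09 at 24 months. The ages of 3 and 24 months overlapped, and the rise at 24 months (1.11 ± 0.47, adjusted p = 0.038) was 0.27 (adjusted p = 0.59) without 24-month mouse 2 and 0.05 ± 0.48 with the correction. The calls were also lost without 3-month mouse 1 or 3 (0.97, adjusted p = 0.13, and 0.60, adjusted p = 0.28).

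Hist2h3c2, an H3 gene on chromosome 3 (chr3:96238108-96239127, minus strand), was highest at 24 months as well, at a low level. It stood at 1.09, 0.862 and 0.722 FPKM at 3 months, 1.13, 0.544 and 0.881 at 6 months, 1.31, 1.52 and 1.43 at 12 months, and 2.58, 3.78 and 2.18 at 24 months. Mice of 12 and 24 months stood above those of 3 months without overlap. Between 12 and 3 months 44.4% of all genes tested did not overlap, and Hist2h3c2 was not called there. It rose at 24 months by 1.67 ± 0.35 (adjusted p = 0.00034), and with the correction the value was 0.25 ± 0.38 (adjusted p = 0.59).

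Hist2h2be, an H2B gene with an ordinary AATAAA end and no stem-loop found (chr3:96221119-96223738, plus strand), moved the other way. Its levels were 3.91, 4.11 and 3.47 FPKM at 3 months, 4.33, 3.71 and 3.58 at 6 months, 4.51, 3.80 and 4.14 at 12 months, and 2.51, 1.64 and 2.06 at 24 months. All 24-month mice lay below all younger ones. It fell by 0.89 on the log2 scale at 24 against 3 months (SE 0.21, adjusted p = 0.0012), whereas with the correction it rose by 0.96 ± 0.20 (adjusted p = 0.0010). Its GC content of 45.3% is the lowest of the 14 replication-dependent genes tested.

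**Figure D2:**
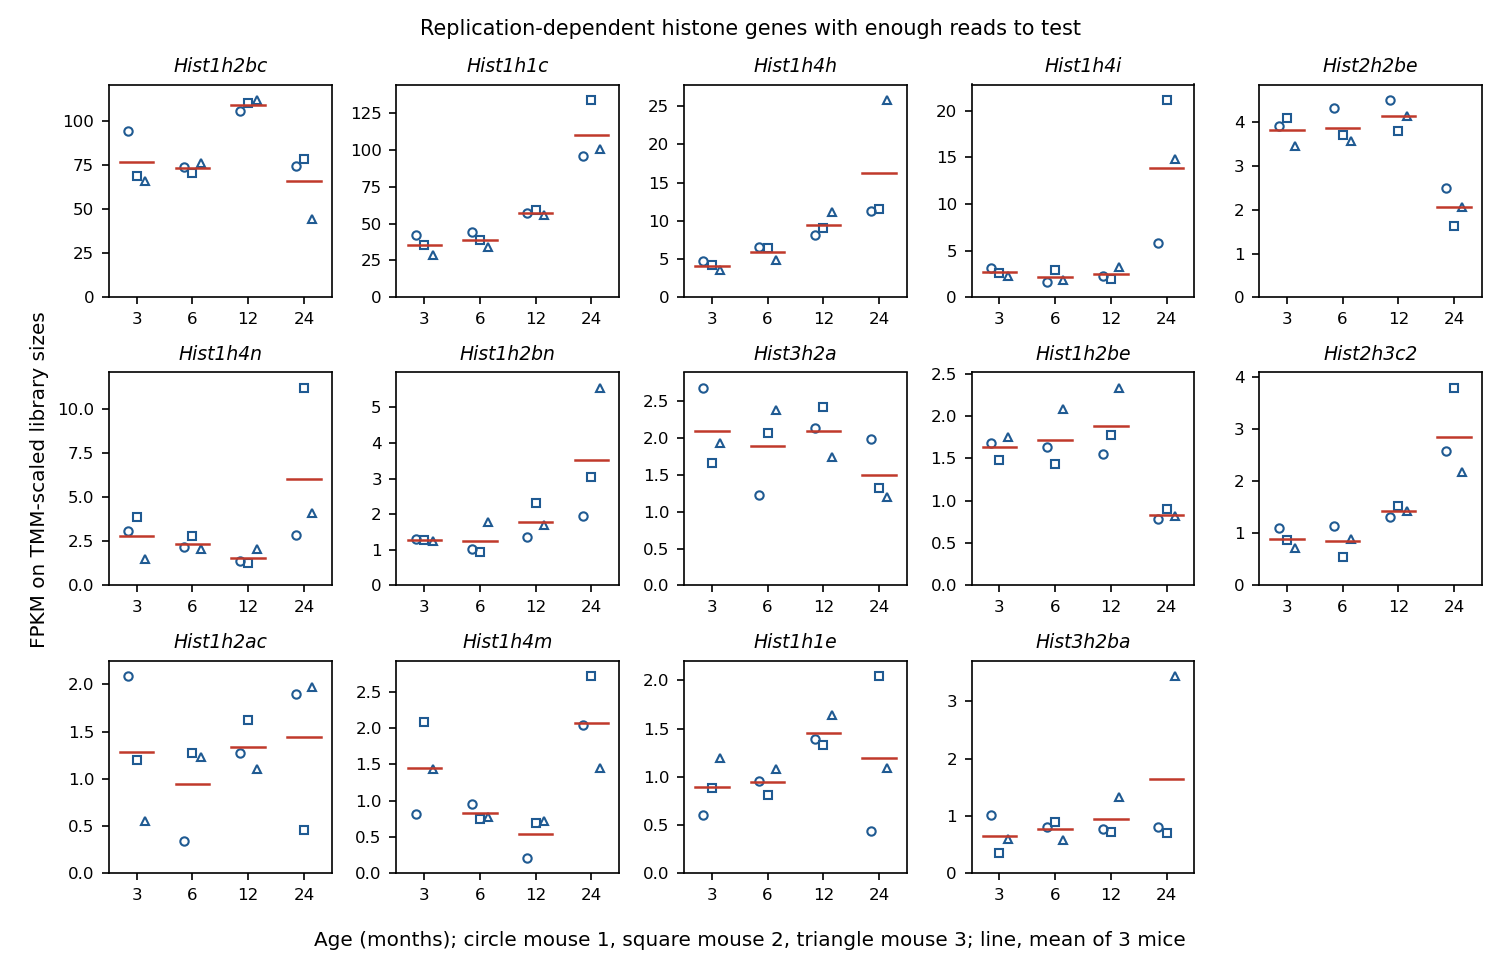
Level of each tested replication-dependent histone gene (FPKM on TMM-scaled library sizes, vertical axis from 0, scales differ between panels) by age in months; each symbol is 1 mouse and each line the mean of 3. Hist1h1c runs from 28.9 at 3 months to 133 at 24 months, while Hist2h2be lies at 1.64 to 2.51 at 24 months, under all younger mice.

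Of the 14 replication-dependent genes tested, 6 rose and 2 fell at 24 against 3 months, where 38.2% of all genes rose and 44.6% fell. The 6 were Hist1h4i, Hist1h4h, Hist2h3c2, Hist1h1c, Hist1h2bn (1.41 ± 0.45, adjusted p = 0.0086) and Hist1h4n, and the 2 were Hist1h2be (-0.97 ± 0.27, adjusted p = 0.0032) and Hist2h2be. The call of Hist1h2bn was lost without 3-month mouse 3 (1.16, adjusted p = 0.052) or 24-month mouse 3 (0.98, adjusted p = 0.062). This gene reached the read minimum in all 3 mice only at 24 months and shares 86.4% of its words with other genes. Its call therefore adds no support for a rise of the class. The median fold change of the 14 was 0.83, against -0.29 over all genes tested. With the correction 6 rose and none fell, against 30.4 and 26.9% of all genes: Hist1h4i, Hist1h4h, Hist3h2a (1.02 ± 0.29, adjusted p = 0.0078), Hist2h2be, Hist1h2be (0.71 ± 0.24, adjusted p = 0.020) and Hist1h2bc. The corrected call of Hist1h2be passed in 3 of 6 fits that left out 1 mouse, and was lost without 3-month mouse 2 (0.66, adjusted p = 0.058), 24-month mouse 2 (0.69, adjusted p = 0.056) or 24-month mouse 3 (0.56, adjusted p = 0.067). The median was then 0.26, against 0.02. As sequenced Hist3h2a had -0.47 ± 0.31, an H2A gene that overlaps Trim17 on the same strand. The mice of 3 and 24 months did not overlap for 7 of the 14, 5 higher and 2 lower, against 84.4% of all genes. The total share called, 8 of 14, was below the background of 82.8%, and with the correction 6 of 14 stood against 57.3%.

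Another 4 genes, at the edge of detection, did not pass in either form: Hist1h1e (0.45 ± 0.47 as sequenced and 0.26 ± 0.47 with the correction), Hist1h2ac (0.08 ± 0.60 and -0.03 ± 0.62), Hist1h4m (0.55 ± 0.47 and -0.55 ± 0.49) and Hist3h2ba (1.19 ± 0.60 and 0.22 ± 0.53). They rest on 100 to 181 reads over all libraries. Without 24-month mouse 1 or 2 Hist3h2ba passed as sequenced (1.53, adjusted p = 0.036, and 1.59, adjusted p = 0.027). The summed level of all 68 genes went from 142 ± 25 FPKM (SD, n = 3) at 3 months to 144 ± 4.50 at 6, 204 ± 7.13 at 12 and 239 ± 36.6 at 24 months. Without Hist1h1c it was 107 ± 18.5, 105 ± 2.98, 147 ± 7.19 and 130 ± 16.4. Counted as reads per M gene reads, with no TMM scaling and no length, the 68 genes had 167 ± 27.9, 168 ± 12.0, 220.2 ± 2.00 and 187 ± 57.5, and 24-month mouse 3, at 126, lay below all 3-month mice. Without Hist1h1c these counts were 102 ± 15.9, 98.1 ± 3.78, 125 ± 3.28 and 65.5 ± 18.8. On both scales all 12-month mice stood above all 3-month mice, with and without Hist1h1c. For 24 against 3 months the direction of the other 67 genes together depends on the scale: in FPKM the mice overlapped with a higher mean at 24 months, and in reads per M all 24-month mice were lower.

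At 12 against 3 months Hist1h1c and Hist1h4h were the only members called as sequenced, 2 of 14, where 6.3% of all genes rose, 8.87% fell and 15.2% differed. With the correction Hist1h4h rose and Hist1h4m fell (-1.82 ± 0.56, adjusted p = 0.038) among replication-dependent genes, and among variants H3f3a (0.51 ± 0.13, adjusted p = 0.020) and H3f3b (0.64 ± 0.18, adjusted p = 0.027) rose, against 9.93% of genes that rose and 8.19% that fell (18.1% in all). Hist1h4m is short, rests on 2 to 19 reads a library and shares 89.8% of its words with other genes. The calls at 12 months were not stable to leaving out 1 mouse, although the fold changes kept their direction. As sequenced they were 0.55 to 0.83 for Hist1h1c and 1.05 to 1.28 for Hist1h4h over these fits. Without 3-month mouse 2, 3-month mouse 3 or 12-month mouse 2, none of the 14 genes passed as sequenced. The number of all genes called went from 2433 to 302, 485 and 751 in these 3 fits. Hist1h1c was also lost without 12-month mouse 1 (0.68, adjusted p = 0.091). With the correction Hist1h4h kept its direction but passed in none of the 6 fits that left out 1 mouse (0.57 to 0.80, adjusted p = 0.058 to 0.14). Corrected Hist1h4m and H3f3b passed in 1 of these 6 fits each, that without 3-month mouse 1. Their values over the 6 fits were -2.29 to -1.43 (adjusted p = 0.017 to 0.19) and 0.56 to 0.77 (adjusted p = 0.025 to 0.11). Corrected H3f3a was lost without 3-month mouse 2 (0.46, adjusted p = 0.10), 3-month mouse 3 (0.48, adjusted p = 0.079) or 12-month mouse 1 (0.49, adjusted p = 0.051). Against 3 months, 6 replication-dependent genes and 3 variants were higher without overlap at 12 months, and 1 replication-dependent gene was lower. Between these ages 44.4% of all genes tested did not overlap. Between 3 and 6 months 1 replication-dependent gene and no variant did not overlap, against 10.9% of all genes. At 6 against 3 months no member and no gene passed edgeR's test (0.0% of genes), 267 genes had an unadjusted p under 0.05 with no member among them, and DESeq2 called 6 genes. With the correction 1 gene passed (0.00627%), again no member. With the 6 mice of these ages alone and mouse number as a block, 59 genes passed, and 61 with the correction, none of them a member.

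Among variants H3f3b and H3f3a encode the same H3.3 protein from different genes. H3f3b (chr11:116021912-116027962, minus strand) held 43.5% of variant reads, with 217, 164 and 163 FPKM at 3 months, 188, 176 and 192 at 6 months, 206, 197 and 300.4 at 12 months, and 96.4, 100.5 and 106 at 24 months. The 24-month mice lay below all others. H3f3a (chr1:180800832-180813943, minus strand) stood at 35.0, 28.6 and 30.3 FPKM at 3 months, 31.6, 29.8 and 29.3 at 6 months, 32.7, 30.5 and 43.2 at 12 months, and 11.4, 10.6 and 9.56 at 24 months. Here, too, the 24-month mice were lowest without overlap, and 12-month mouse 3 was highest for both genes. H3f3b fell by 0.84 (SE 0.21, adjusted p = 0.0016) and H3f3a fell by 1.57 (SE 0.19, adjusted p = 2.1e-06) on the log2 scale. With the correction both rose, by 1.39 ± 0.18 (adjusted p = 2.1e-05) and 0.79 ± 0.14 (adjusted p = 0.00025). Their GC content was 43.4 and 43.2%, above that of only 17.1 and 15.9% of the genes tested.

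H2afz and H2afv encode the near-identical H2A.Z proteins, which mark promoters. H2afz (chr3:137864487-137866922, plus strand) stood at 96.4, 75.6 and 80.9 FPKM at 3 months, 87.6, 86.9 and 82.7 at 6 months, 104.6, 111 and 144 at 12 months, and 44.3, 46.5 and 51.5 at 24 months. It was highest at 12 months and lowest at 24, with no overlap between these ages and the others. H2afz was not called at 12 against 3 months, where 44.4% of all genes tested did not overlap. It fell by 0.83 at 24 against 3 months (SE 0.19, adjusted p = 0.00071), and with the correction the difference did not pass (-0.19 ± 0.13, adjusted p = 0.23), except without 24-month mouse 3 (-0.36, adjusted p = 0.018). H2afv (chr11:6427229-6444443, minus strand), whose values are shown because of its pairing with H2afz and after they had been seen, stood at 27.0, 18.1 and 20.4 FPKM at 3 months, 20.6, 21.5 and 19.3 at 6 months, 26.7, 28.0 and 23.2 at 12 months, and 38.8, 40.0 and 78.7 at 24 months. It rose at 24 against 3 months by 1.26 ± 0.26 (adjusted p = 0.00030) and with the correction by 2.27 ± 0.31 (adjusted p = 3.5e-05). On the TMM scale all 24-month mice lay above all younger ones. In the deposited FPKM 24-month mouse 2, at 30.7, lay below 3-month mouse 1, at 31.2. Without 24-month mouse 3 the rise of H2afv was 0.86 as sequenced and 1.70 with the correction.

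The ratio of the H2A.Z genes was lower in each 24-month library than in any younger one. H2afz over H2afv was 3.58, 4.18 and 3.96 at 3 months, 4.26, 4.04 and 4.28 at 6 months, 3.92, 3.96 and 6.19 at 12 months, and 1.14, 1.16 and 0.654 at 24 months. The GC contents of these genes were 48.4 and 47.2%, and their lengths 1069 and 1633 bases. The ratio of H3f3b to H3f3a, whose GC contents also lie close, went from 5.77 ± 0.41 (SD, n = 3) at 3 months to 9.65 ± 1.33 at 24 months. That of Hist1h1c to H1f0, the linker histone of cells that have stopped dividing, went from 0.656 ± 0.057 to 1.98 ± 0.20. The GC contents of Hist1h1c and H1f0 lie further apart, at 55.1 and 52.1%. The trend on GC content and length was not removed from any of the ratios. With the correction Hist1h1c did not pass at 24 against 3 months and H1f0 fell. None of these 3 ratios overlapped between 3 and 24 months. An exact two-sided permutation test gave p = 0.1 for each (n = 3 against 3), the smallest value that 3 mice against 3 allow, and 0.2 after Benjamini-Hochberg adjustment over the 10 comparisons of 5 pairs. The other 2 pairs overlapped between these ages: H2afy over H2afy2 was 1.00 times its 3-month value at 24 months (exact permutation p = 1.0) and Hist1h2bc over Hist1h2ac 0.786 times (exact permutation p = 0.7).

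**Figure D3:**
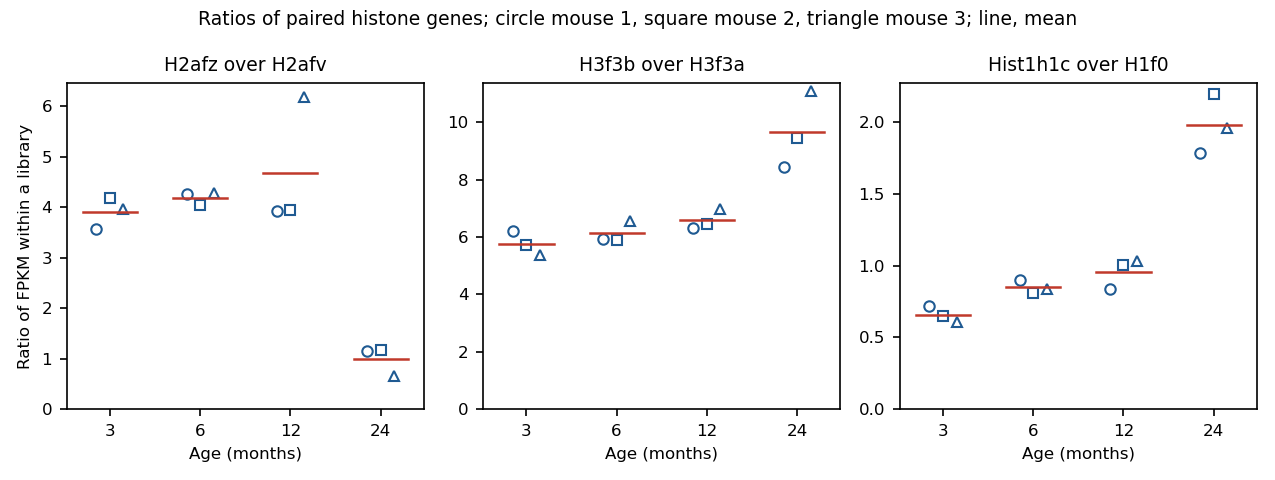
Ratio of FPKM within each library for 3 pairs of histone genes, by age in months; each symbol is 1 mouse, each line the mean of 3, and the vertical axes start at 0. The ratio of H2afz to H2afv lies between 0.654 and 1.16 at 24 months and at 3.58 or more in all younger mice.

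As sequenced the highest rises of any member at 24 against 3 months were those of H2afx and H1fx, and 1 mouse had much of them. H2afx (chr9:44334694-44336077, plus strand) stood at 11.7, 9.41 and 11.6 FPKM at 3 months, 10.2, 13.1 and 12.4 at 6 months, 14.3, 14.5 and 17.6 at 12 months, and 41.0, 45.6 and 178 at 24 months. H1fx, a linker histone variant (chr6:87980421-87981637, minus strand), stood at 2.45, 1.52 and 0.778 FPKM at 3 months, 1.85, 2.15 and 1.07 at 6 months, 2.10, 2.82 and 3.64 at 12 months, and 7.30, 8.36 and 31.6 at 24 months. All 24-month mice were above all younger ones, and mouse 3 was the highest for both genes. H2afx rose by 3.02 ± 0.44 (adjusted p = 1.1e-05) and H1fx by 3.28 ± 0.54 (adjusted p = 3.8e-05) at 24 against 3 months, and without 24-month mouse 3 by 2.00 and 2.29. With the correction they rose by 0.57 ± 0.22 (adjusted p = 0.039) and 0.81 ± 0.28 (adjusted p = 0.022), and without 24-month mouse 3 these values were 0.18 (adjusted p = 0.35) and 0.43 (adjusted p = 0.23). The corrected call for H2afx was also lost without 3-month mouse 1 or 2 (0.50 and 0.49, adjusted p = 0.13 in both fits). That for H1fx was lost without 3-month mouse 2 or 3 or 24-month mouse 2 (0.77, 0.65 and 0.77, adjusted p = 0.066, 0.074 and 0.052). Their GC contents, 62.3 and 71.3%, are high: that of H2afx is above 98.6% of the genes tested.

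H2afj (chr6:136808244-136810070, plus strand), an H2A variant known to build up in senescent cells, stood at 42.4, 29.9 and 33.2 FPKM at 3 months, 31.6, 34.0 and 33.6 at 6 months, 46.5, 51.9 and 46.5 at 12 months, and 86.9, 86.1 and 167 at 24 months. The mice of 12 months were above those of 3 and 6 months, and those of 24 months above all. H2afj rose at 24 against 3 months by 1.69 ± 0.25 (adjusted p = 1.4e-05). With the correction the value was 0.32 ± 0.16 (adjusted p = 0.097), though it passed without 24-month mouse 1 (0.43, adjusted p = 0.047) or 2 (0.47, adjusted p = 0.024), and the difference at 12 against 3 months passed neither way (0.46 ± 0.24, adjusted p = 0.19, and 0.16 ± 0.16, adjusted p = 0.50).

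H1f0 and H2afy were level as sequenced on the TMM scale. H1f0 (chr15:79028212-79030498, plus strand) stood at 59.0, 54.8 and 47.7 FPKM at 3 months, 49.2, 47.8 and 40.7 at 6 months, 68.1, 58.6 and 54.3 at 12 months, and 53.6, 60.9 and 51.3 at 24 months. At 24 against 3 months it had 0.04 ± 0.18 (adjusted p = 0.86), and with the correction it fell by 0.51 (SE 0.13, adjusted p = 0.0033). H2afy (chr13:56073619-56136361, minus strand), which encodes macroH2A1, stood at 34.1, 26.9 and 27.5 FPKM at 3 months, 27.7, 26.8 and 28.2 at 6 months, 31.5, 32.9 and 25.5 at 12 months, and 33.8, 36.0 and 34.3 at 24 months. It passed neither test (0.23 ± 0.18, adjusted p = 0.24, and 0.18 ± 0.13, adjusted p = 0.26). Without 3-month mouse 1 the corrected value of H2afy was 0.37 (adjusted p = 0.023). For both genes the mice of 3 and 24 months overlapped on the TMM scale. In the deposited FPKM, without TMM scaling, all 24-month mice were lower than all 3-month mice. The ranges there were 26.7 to 46.6 against 54.9 to 68.2 for H1f0, and 17.9 to 27.9 against 31.6 to 39.5 for H2afy. H2afy2, which encodes macroH2A2, had 0.22 ± 0.24 as sequenced and fell by 0.98 with the correction (SE 0.20, adjusted p = 0.00094).

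**Figure D4:**
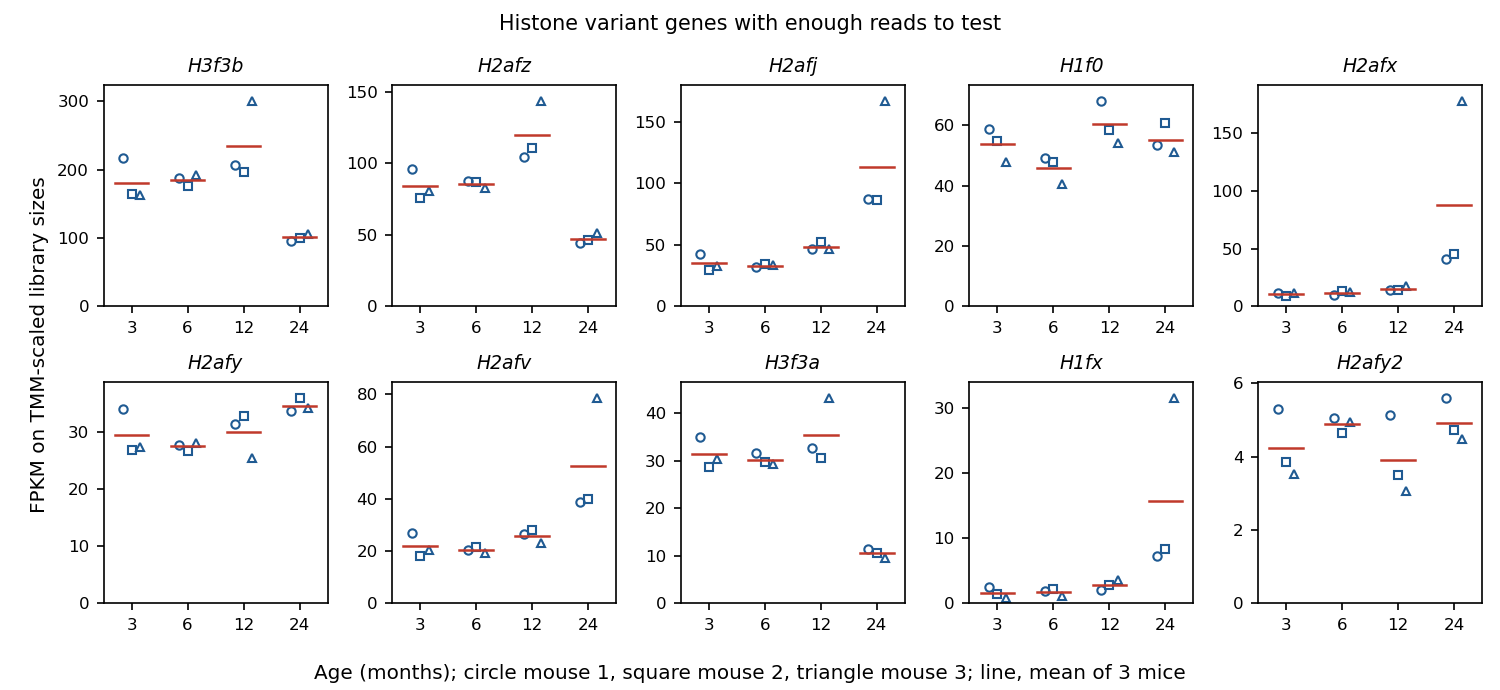
Level of each tested histone variant gene (FPKM on TMM-scaled library sizes, vertical axis from 0, scales differ between panels) by age in months; each symbol is 1 mouse and each line the mean of 3. H3f3b, H3f3a and H2afz are lowest at 24 months, while H2afx, H1fx, H2afj and H2afv are highest there, with mouse 3 at 178 for H2afx.

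Of the 10 variants tested, 4 rose (H2afx, H1fx, H2afj and H2afv) and 3 fell (H3f3a, H3f3b and H2afz) at 24 against 3 months, against 82.8% of all genes called. With the correction 5 rose (H2afv, H3f3b, H1fx, H3f3a and H2afx) and 2 fell (H2afy2 and H1f0), against 57.3%. The call was the same both ways for H2afx, H2afv, H1fx, Hist1h4h and Hist1h4i, and opposite for H3f3a, H3f3b, Hist1h2be and Hist2h2be. The share of variants called, 7 of 10, was not above the background as sequenced. With RLE scaling in place of TMM, the median over all genes at 24 against 3 months moved from -0.29 to -0.17, and no member changed direction.

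**Figure D5:**
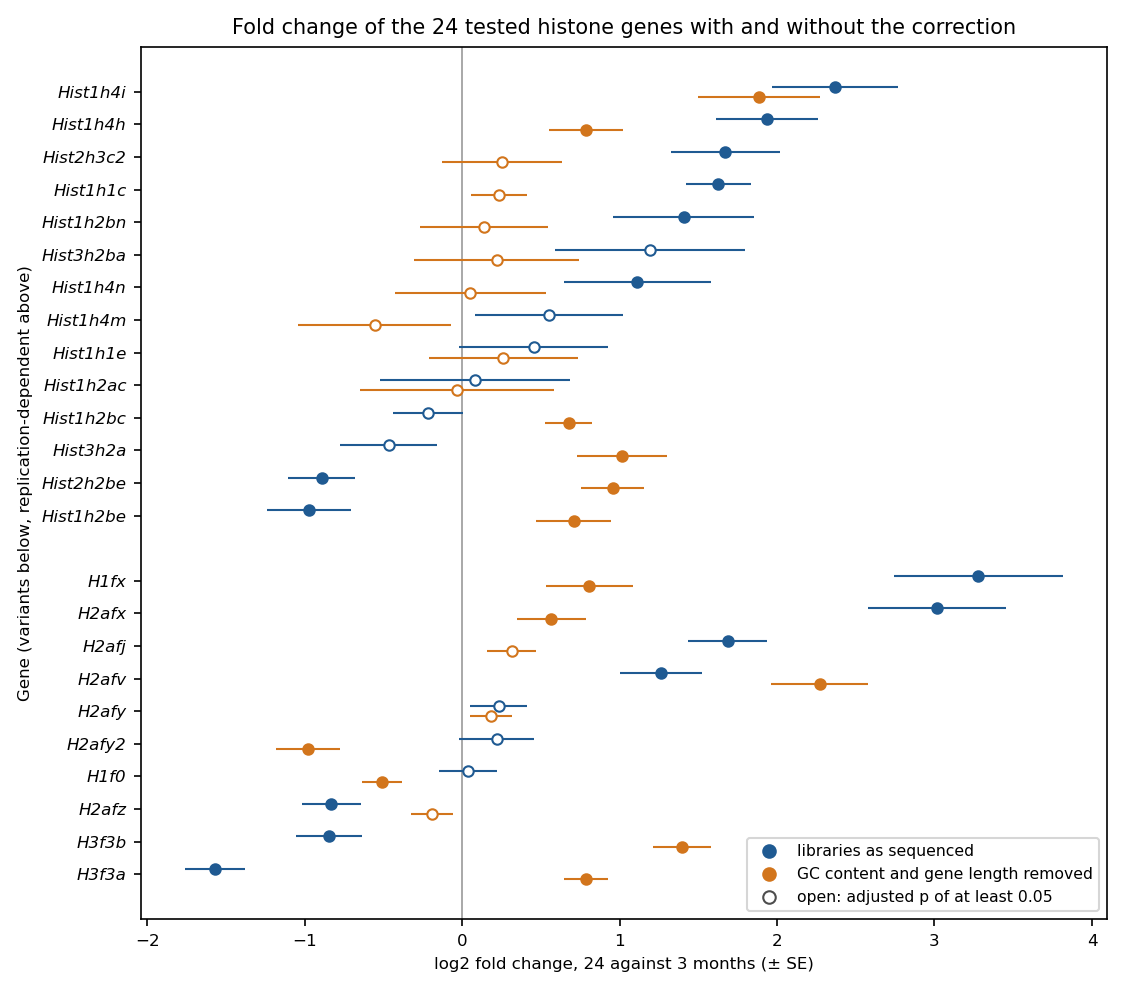
Log2 fold change (± SE) at 24 against 3 months of the 24 tested histone genes, as sequenced (blue) and with GC content and gene length removed (orange); filled points have an adjusted p under 0.05. Hist1h4i (2.37 and 1.89) and H2afv (1.26 and 2.27) stay filled on the right in both, while H3f3b goes from -0.84 to 1.39.

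The comparison of 24 against 12 months shares its 24-month libraries with that of 24 against 3 months. As sequenced 6 replication-dependent genes and 4 variants rose and 3 of each class fell, against 37.3 and 42.5% of all genes (79.7% called). With the correction 3 replication-dependent genes rose (Hist1h4i, Hist2h2be and Hist3h2a), 3 variants rose (H2afv, H3f3b and H2afx) and 3 fell (H2afz, H1f0 and H2afy2), against 22.4 and 21.2% (43.7% called). The mice of 12 and 24 months did not overlap as sequenced for 9 replication-dependent genes (6 higher) and 8 variants (5 higher), against 80.0% of all genes. Hist1h4i rose by 2.49 ± 0.41 (adjusted p = 5.0e-05) and by 2.32 ± 0.39 with the correction (adjusted p = 0.00028). H2afz fell by 1.34 (SE 0.19, adjusted p = 1.5e-05) and by 0.52 (SE 0.13, adjusted p = 0.0057). H2afv rose by 1.01 ± 0.26 (adjusted p = 0.0019) and by 2.09 ± 0.30 (adjusted p = 0.00011). These 3 genes passed both ways in every fit that left out 1 mouse, while other calls were lost in some of these fits. As sequenced Hist1h4h (0.76, adjusted p = 0.035) was lost without 12-month mouse 1 (0.44, adjusted p = 0.27), 12-month mouse 2 (0.73, adjusted p = 0.078) or 24-month mouse 3 (0.28, adjusted p = 0.32). Hist2h3c2 (1.02, adjusted p = 0.012) was lost without 12-month mouse 1 (0.76, adjusted p = 0.10) or 24-month mouse 2 (0.75, adjusted p = 0.084). With the correction Hist2h2be (0.60, adjusted p = 0.025) passed in 2 of 6 such fits and was lost on leaving out mouse 2 or 3 of the 12-month group or mouse 1 or 3 of the 24-month group (0.40 to 0.57, adjusted p = 0.067 to 0.11). Hist3h2a (0.87, adjusted p = 0.024) passed in 4 and was lost without 12-month mouse 3 (0.70, adjusted p = 0.081) or 24-month mouse 1 (0.73, adjusted p = 0.099). H2afx (0.65, adjusted p = 0.027) passed in 3 and was lost without 12-month mouse 1 or 2 (0.57 and 0.55, adjusted p = 0.11 in both) or 24-month mouse 3 (0.26, adjusted p = 0.21). H2afy2 (-0.65, adjusted p = 0.019) passed in 3 and was lost without 12-month mouse 1 (-0.45, adjusted p = 0.12) or 24-month mouse 2 or 3 (-0.63 and -0.50, adjusted p = 0.053 and 0.064). In these fits 4 to 7 variants passed with the correction.

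Genes that replicate DNA and divide cells were taken from a list of 26. As sequenced 10 rose and 10 fell at 24 against 3 months, against 38.2 and 44.6% of all genes, with a median of 0.01 against -0.29. With the correction 12 rose and 2 fell (Gins2 and Ube2c), against 30.4 and 26.9%, with a median of 0.48 against 0.02. The 20 and 14 called stand beside shares of 82.8 and 57.3% of all genes. Mcm2, a subunit of the replicative helicase, rose both ways (2.15 ± 0.24, adjusted p = 1.1e-06, and 1.69 ± 0.21, adjusted p = 1.3e-05). Mcm4 of the same helicase fell as sequenced (-2.04 ± 0.18, adjusted p = 1.6e-07) and had -0.04 ± 0.17 with the correction. Rrm1, a subunit of ribonucleotide reductase (-2.68 ± 0.28, adjusted p = 5.9e-07, and -0.17 ± 0.19), and Pcna, the sliding clamp (-1.57 ± 0.20, adjusted p = 3.4e-06, and -0.27 ± 0.18), followed Mcm4. At 12 against 3 months 1 of the 26 was called as sequenced, Rrm2, which fell (-1.08 ± 0.30, adjusted p = 0.029), and with the correction 1, Tyms, which rose (0.68 ± 0.18, adjusted p = 0.020). Mcm4 had -0.47 ± 0.17 as sequenced there (adjusted p = 0.071).

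The machinery that transcribes histone genes and cuts their messages was a list of 15, of which 14 could be tested. As sequenced 5 rose and 6 fell at 24 against 3 months, against 38.2 and 44.6% of all genes (median -1.22 against -0.29). With the correction 5 rose and none fell, against 30.4 and 26.9% (median 0.38 against 0.02), so that 5 of 14 were called where 57.3% of all genes were. The 5 of the corrected fit were Lsm11 (1.50 ± 0.22, adjusted p = 4.4e-05) and Lsm10 (0.58 ± 0.13, adjusted p = 0.0018) of the U7 particle that directs the cut, Cstf2 (0.84 ± 0.19, adjusted p = 0.0019), Sympk (0.96 ± 0.25, adjusted p = 0.0046) and Cpsf3 (0.44 ± 0.16, adjusted p = 0.032), which encodes the nuclease. As sequenced Slbp, whose protein binds the stem-loop, fell by 1.85 (SE 0.21, adjusted p = 1.2e-06), from 13.1 ± 1.38 to 3.66 ± 0.586 FPKM, and with the correction it had -0.18 ± 0.20 (adjusted p = 0.46). Cpsf2 (-3.02 ± 0.26, adjusted p = 1.1e-07), Eri1 (-2.88 ± 0.26, adjusted p = 1.4e-07), a nuclease that trims histone message ends, and Cstf2 (-2.15 ± 0.21, adjusted p = 3.6e-07) also fell as sequenced. None of the 14 passed at 12 against 3 months in either form; Hinfp, a factor of H4 promoters, had -0.97 ± 0.33 (adjusted p = 0.059) and Lsm10 0.50 ± 0.21 (adjusted p = 0.11).

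Histone chaperones and assembly factors made a list of 24. As sequenced 9 rose and 10 fell at 24 against 3 months, against 38.2 and 44.6% of all genes (median -0.21 against -0.29). With the correction 9 rose and 3 fell, against 30.4 and 26.9% (median 0.20 against 0.02), the 3 being Supt16, Ssrp1 and Atrx. Supt16 and Ssrp1 encode both subunits of the chaperone FACT. Supt16 fell both ways (-3.51 ± 0.30, adjusted p = 1.0e-07, and -1.38 ± 0.17, adjusted p = 1.1e-05), as did Ssrp1 (-0.74 ± 0.18, adjusted p = 0.0012, and -0.88 ± 0.14, adjusted p = 8.2e-05). Ubn2, of the H3.3 chaperone complex HIRA (-3.17 ± 0.23, adjusted p = 4.3e-08), Spty2d1 (-2.66 ± 0.24, adjusted p = 1.4e-07) and Nap1l1 (-2.18 ± 0.20, adjusted p = 1.9e-07) fell as sequenced. With the correction Ubn2 had -0.20 ± 0.16 and Spty2d1 -0.04 ± 0.18, and Nap1l1 rose by 0.70 ± 0.21 (adjusted p = 0.010). Rbbp4, a histone-binding subunit of several complexes, rose both ways (0.82 ± 0.19, adjusted p = 0.00083, and 3.23 ± 0.23, adjusted p = 1.3e-07). At 12 against 3 months Ubn2 (-1.11 ± 0.21, adjusted p = 0.0061) and Supt16 (-1.02 ± 0.26, adjusted p = 0.021) were the 2 members that fell as sequenced. With the correction both fell (-0.48 ± 0.14, adjusted p = 0.034, and -0.61 ± 0.14, adjusted p = 0.012) and Rbbp4 rose (0.67 ± 0.21, adjusted p = 0.041).

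Levels of cell type markers differed between the ages as well. Their counts at 24 against 3 months stand beside 38.2% of all genes that rose and 44.6% that fell, and 30.4 and 26.9% with the correction. The summed level of the 7 plasma cell markers in the table was 414 to 517 FPKM at 3 months, 2244 to 3289 at 12 and 3969 to 6483 at 24 months, and 7 of 7 rose at 24 against 3 months (6 with the correction). The 6 B cell markers went from 35.2 to 74.0 FPKM at 3 months to 127 to 349 at 24 months, with 4 that rose and 1 that fell (3 and none with the correction). For 6 T cell markers the ranges were 13.8 to 18.5 and 39.8 to 71.6, and 3 rose (4 with the correction). The 8 erythroid and megakaryocyte markers had 2527 to 4441 and 4189 to 7542 FPKM, 4 that rose and 2 that fell (3 and 1), and the 5 heart muscle markers 108 to 228 and 280 to 580, with 4 that rose (1 with the correction). The 6 alveolar type 2 markers had 21509 to 27826 FPKM at 3 months and 34947 to 42352 at 24, with 3 that rose and 2 that fell (1 and 2 with the correction). The sums of 5 alveolar type 1 markers (1748 to 2354 and 4798 to 6919) and of 5 endothelial markers (790.5 to 915 and 1225 to 1849) were higher at 24 months too. Most single genes of these lists fell, 3 of 5 (2 rose) and 4 of 5 (1 rose), and in the corrected fit 1 of the former rose and 1 fell, while 3 of the latter fell. The part of these shifts in the histone values was not tested, and in whole tissue more cells of a type cannot be told apart from more RNA in each.

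For each class the gene with most reads was compared with all other genes on log2(CPM + 1). Over the 9 libraries of 3 to 12 months the non-histone genes most like Hist1h1c were Nat9, Actc1, Lrrc24, Fpgs and Shisa4 (Pearson r 0.975 to 0.981). For H3f3b they were Ndufs4, Snrpd3, Pdcd5, Srp9 and Rpa3 over 12 libraries (r 0.987 to 0.988) and Rpa3, Btf3, Ptma, Hsd17b11 and Dnajc8 over 9 (r 0.982 to 0.990). Of these, Rpa3 was in both sets for H3f3b. These are descriptions over libraries that share the age and composition differences given above.

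At an adjusted p under 0.05 the authors' deposited table has 7 of 41 replication-dependent genes higher and 2 lower at 24 against 3 months, and 4 of 10 variants higher and 3 lower. The 41 and 10 are the members with an adjusted p there. The 7 include Hist1h3a and Hist1h2ag, which have 16 and 8 reads over all 12 libraries and were too low for the test above. The share of all genes called in that table is not given here, so these counts cannot be set beside those above. For 12 against 3 months the authors' deposited table has 3 of 22 replication-dependent genes higher, and for 6 against 3 months none of either class.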

How the data were processed

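RNA was measured by sequencing of poly(A)-selected libraries from 12 lungs, 1 library a mouse. The deposited read counts per gene and FPKM values were made by the authors, and the submitters' processing notes name TopHat, STAR 2.5, HTSeq 0.6.1 and the build mm10. No source used here gives the strand setting or the treatment of reads that fit several genes. The authors' deposited table also holds group means of FPKM, log2 fold changes and p-values, and 6 columns of group values for its comparisons that were not used. Of these, only the log2 fold changes and adjusted p-values were used, for the last comparison of the report. Gene length is another deposited column, and all 235411 FPKM values above 0 followed from it and the counts within a relative difference of 1e-06.

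Counts were tested with edgeR 4.0.16 in R 4.3.3 (quasi-likelihood, robust, TMM, all 12 libraries, age as the only term) on 16042 genes that passed filterByExpr with a minimum of 10 reads. The correction fitted a smooth on GC content and gene length in each library (mgcv 1.9.3) and entered it as an offset, for the 15949 genes with a GC value. GC content came from the longest GENCODE M21 transcript. Tested on simulated data at 24 against 3 months, the fit recovered 46% of genes changed by 1 and 97% of genes changed by 2 on the log2 scale. In that simulation a small set of genes was changed, equally up and down, with no trend on GC content or length. The corrected fit was not run on it. These shares therefore do not describe the fit on the real libraries, where 82.8% of genes were called at 24 against 3 months. Alternatives used RLE scaling, DESeq2 1.42.0, limma 3.58.1, other filters, mouse number as a block, the 6 mice of a comparison only, GC content alone, and each mouse left out. The corrected fits without each mouse and with the block, and the block on the 6 mice of 3 and 6 months, were added after the data were seen. Nothing in the labels ties mice of different ages together. Deviations of the 3 same-numbered pairs of 3- and 6-month libraries were correlated at r 0.11 to 0.24 and those of the 6 other pairs of these ages at -0.15 to -0.012, and for no other ages were all 3 same-numbered pairs above 0.1. Replicates are separate mice, and the edgeR p-values set differences between ages against the spread between mice. In the main fit that spread was estimated over all 4 ages together. The 24-month mice therefore also enter the test of 12 against 3 months.

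The members and the gene lists were chosen with earlier results of these data known. Genes named with their values in every library were, per class, the 6 with the highest mean FPKM, the 3 with the largest fold change at 24 months and the 2 with the largest at 12 months. H2afv and a few others were named outside this rule after their values were seen. The genes most like Hist1h1c over all 12 libraries are not reported here.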

Additional observations from a re-analysis of the deposited data

How the results depend on the processing

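At 12 against 3 months 2433 genes called became 1587 with mouse number as a replicate block, 3962 with the 6 mice only, 3702 with GC content removed, 5748 without the 24-month libraries, and 302 to 3426 without 1 mouse (805 to 2373 with GC content and length removed). Replication-dependent calls there went from 2 to 1 without a filter and to 0 to 3 without 1 mouse, and corrected ones from 2 to 1 with the block and 0 to 1 without 1 mouse. Variant calls went from 0 to 1 with DESeq2, 3 with GC content removed, 2 with length removed as well and 3 without the 24-month libraries, and corrected ones to 0 to 2 without 1 mouse. At 6 against 3 months 0 genes became 6 with DESeq2, 2 without a filter, and 1 with the 6 mice only, with GC content removed or with both removed, and 0 to 1 without 1 mouse, both as sequenced and corrected. With those 6 mice and the replicate block they became 59, and the 1 corrected gene 61. At 24 against 3 months 8 replication-dependent calls among 14 genes tested became 14 without a filter. That fit tested all of the 68 genes except 9 without a read, so these counts are of unlike sets. The share of all genes called without a filter is not given here, nor is that with DESeq2 at 12 against 3 months. Member counts of those fits therefore cannot be set beside a background. At 24 against 12 months 12791 genes became 7272 with GC content and 6969 with both removed, 9 replication-dependent calls became 5 and 3, and the 3 corrected calls became 2 to 5 without 1 mouse.

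Over all ages mouse numbers did not pair the samples: of 18 same-numbered pairs of libraries 5 had deviations correlated above 0.1 (median r -0.04, range -0.31 to 0.24), among them all 3 of 3 and 6 months. With all 12 libraries the block left 0 genes at 6 against 3 months and 8 replication-dependent and 7 variant calls at 24 against 3 months. The share of all genes called with the block at 24 against 3 months is not given here.

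Fold changes at 24 against 3 months that changed sign with GC content removed, and then with length as well, were Hist1h2bc (1.54, 0.68), H1f0 (-0.41, -0.51), H3f3b (1.55, 1.39), Hist3h2a (1.29, 1.02), Hist1h4m (-1.42, -0.55), Hist1h2be (0.87, 0.71), H3f3a (0.82, 0.79), H2afy2 (-0.88, -0.98) and Hist2h2be (1.06, 0.96). With GC content alone Hist3h2ba (-0.61), Hist1h4n (-0.73), H2afz (0.15), Hist1h2bn (-0.81) and Hist2h3c2 (-0.25) did so, and with both Hist1h2ac (-0.031). Without 1 mouse H2afy gave -0.045 to 0.25, Hist1h2bc -0.53 to 0.0049, Hist1h1e -0.28 to 0.87, H1f0 -0.27 to 0.092, H2afy2 -0.12 to 0.28 and Hist1h2ac -0.48 to 0.56. Corrected values without 1 mouse were -0.45 to 0.66 for Hist3h2ba, -0.36 to 0.80 for Hist1h1e, -0.90 to 0.45 for Hist1h4n (-0.054 with the replicate block), -0.10 to 0.33 for Hist1h2bn, -0.18 to 0.55 for Hist2h3c2 and -0.28 to 0.63 for Hist1h2ac. At 12 against 3 months H2afx became -0.080 with both removed, and without 1 mouse H2afy gave -0.053 to 0.14, Hist1h4i -0.34 to 0.017, and corrected H1fx -0.11 to 0.42 and H2afx -0.21 to 0.029. At 24 against 12 months H3f3a became 0.29 and 0.28, and H3f3b 0.85 and 0.76. The cause of these changes was not tested.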
